A study of Homo sapiens with 18 samples.

Results

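R-loops were followed at the genes that encode the cell's own machinery against R-loops: RNASEH1, RNASEH2A, RNASEH2B, RNASEH2C, AQR, TOP1, XRN2, BRCA1 and FANCD2. These 9 R-loop nuclease and resolution factor genes were named by symbol, out of 19962 protein-coding genes of GENCODE 44. A region was given to a gene when its midpoint lay in the hg38 span of the gene or within 2 kb of its most 5′ start. By this rule 397 of the 774635 regions in 9 peak lists belonged to the set, 395 of them in DRIP–seq and 2 in anti-GFP ChIP–seq.

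In DRIP–seq, RNA/DNA hybrids in purified DNA are pulled down with the S9.6 antibody. The cells were MCF10A, an immortal, non-tumor line of human breast epithelium, and A3B KO cells were compared with WT cells in DMSO or after 2 h or 6 h of PMA (25 ng/ml). PMA activates protein kinase C, and APOBEC3B (A3B) is a DNA cytosine deaminase that PMA induces. The A3B KO cells are a single CRISPR derivative in which a deletion joins the neighboring APOBEC3A and APOBEC3B genes, so only this derivative stands for the loss of A3B. In the ChIP–seq arm, MCF10A-TREx-A3B-eGFP cells carried a doxycycline-inducible A3B-eGFP and were treated with doxycycline (DOX) and PMA 2 h, with DOX and DMSO, or with DMSO and no DOX. DOX was given at 1 µg/ml for 24 h. Their A3B-eGFP comes from an inducible transgene and not from the native promoter. Each of the 9 conditions was 1 library, several immunoprecipitations having been pooled before it was made, so the spread between replicates is unknown and differences between conditions carry no p-value.

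An R-loop forms when a transcript pairs with its template behind RNA polymerase and leaves the other DNA strand single. RNase H1, a single protein, and RNase H2, a complex of a catalytic subunit (RNASEH2A) with 2 accessory subunits (RNASEH2B and RNASEH2C), cut the RNA of the hybrid, and RNase H2 also removes single ribonucleotides left in DNA. Aquarius (AQR) is an intron-binding helicase of the spliceosome, topoisomerase I (TOP1) removes the negative supercoils that help hybrids form, and XRN2 is the 5′-to-3′ exonuclease that degrades the downstream transcript at termination. BRCA1 and FANCD2, known from homologous recombination and from interstrand crosslink repair, also limit R-loops where replication and transcription meet. The results below concern hybrids at these genes, not the abundance or activity of their proteins.

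Each entry of a list is a region of 500 bp around a MACS2 summit, with the pileup (fragments at the summit), the fold enrichment over the local background and the −log10 q, each against the matching input. The DRIP lists held 98432, 120428 and 169126 regions for A3B KO cells (DMSO, PMA 2 h, PMA 6 h) and 91894, 111771 and 165877 for WT cells, and the ChIP lists 7122 (DOX+ PMA), 5945 (DOX+ DMSO) and 4040 (DOX- DMSO). The median pileup per DRIP list was 20 to 30 fragments, and as read totals are not known, pileup and list length can move with depth. Changes between lists were therefore counted by places within each list. Fold enrichments are also given side by side, as values of single lists. Their median over all regions was 4.31, 5.01 and 4.64 in the A3B KO lists (DMSO, PMA 2 h, PMA 6 h) and 4.32, 4.64 and 5.26 in the WT lists. Like fold enrichments can thus stand at unlike places. APOBEC3B itself had 0 regions in the 3 A3B KO lists, against 0 in WT DMSO, 1 in WT PMA 2 h (5.05-fold) and 2 in WT PMA 6 h (at most 3.95-fold). Of 12 basal epithelial marker genes, 11 or 12 had a region in each DRIP list, against 5 to 7 of 8 luminal and 1 to 3 of 4 blood marker genes, which describes hybrids and not expression. In bulk cells, more cells with a hybrid and more hybrid per cell cannot be told apart, and an RNase H-treated immunoprecipitation was not analysed here.

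All 9 genes had at least 1 DRIP region in each of the 6 DRIP lists, while 57.4% of protein-coding genes did. In single lists the share of genes with a region was 71.9%, 73.5% and 77.2% in A3B KO cells (DMSO, PMA 2 h, PMA 6 h) and 70.1%, 70.8% and 77.6% in WT cells. Within 2 kb of the start, 6 members had a region in each A3B KO list (36%, 36.5% and 38.3% of genes), and 6, 5 and 8 in the WT lists (35%, 31.9% and 38.5%). RNASEH1, the 3 RNase H2 genes and BRCA1 had one there in all 6 lists (18.5% of genes). In A3B KO cells the set held 57, 68 and 78 regions (DMSO, PMA 2 h, PMA 6 h), and in WT cells 62, 57 and 73. Per 100000 regions of a list, that is 57.9, 56.5 and 46.1 in A3B KO cells and 67.5, 51.0 and 44 in WT cells. The members' share of the list was thus lowest at PMA 6 h in both lines. Over all protein-coding genes the mean was 3.40, 3.99 and 5.37 regions per gene in A3B KO cells, and 3.24, 3.59 and 5.13 in WT cells. Set against list length, that mean was also lowest at PMA 6 h in both lines, so this order is not particular to the members. BRCA1 alone contributed 152 of the 395 DRIP regions.

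Per length, RNASEH2C and RNASEH2A had the most regions. RNASEH2C had a mean of 7.94 regions per 10 kb and RNASEH2A 6.44, at percentiles 99.6 and 98.9 of all protein-coding genes, against a median gene of 0.57. BRCA1 followed with 1.98, FANCD2 with 1.22 and RNASEH1 with 1.15, while TOP1 (0.53), AQR (0.40), RNASEH2B (0.33) and XRN2 (0.24) lay below the median gene. Regions are summits, and several summits can share a called peak. In a list the regions of RNASEH2C came from 1 to 4 called peaks, and those of RNASEH2A also from 1 to 4. The 2 dense genes are also the 2 shortest, 6.81 kb for RNASEH2C and 7.06 kb for RNASEH2A, and both share their ground with another gene. Of the 42 RNASEH2C regions, 35 lay in KAT5, a histone acetyltransferase gene on the opposite strand. All 35 RNASEH2A regions lay in the annotated spans of HOOK2 and THSD8. DRIP reads were not assigned to a strand in the lists, so hybrids of RNASEH2C and KAT5, or of RNASEH2A and its partners, cannot be told apart.

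**Figure D1:**
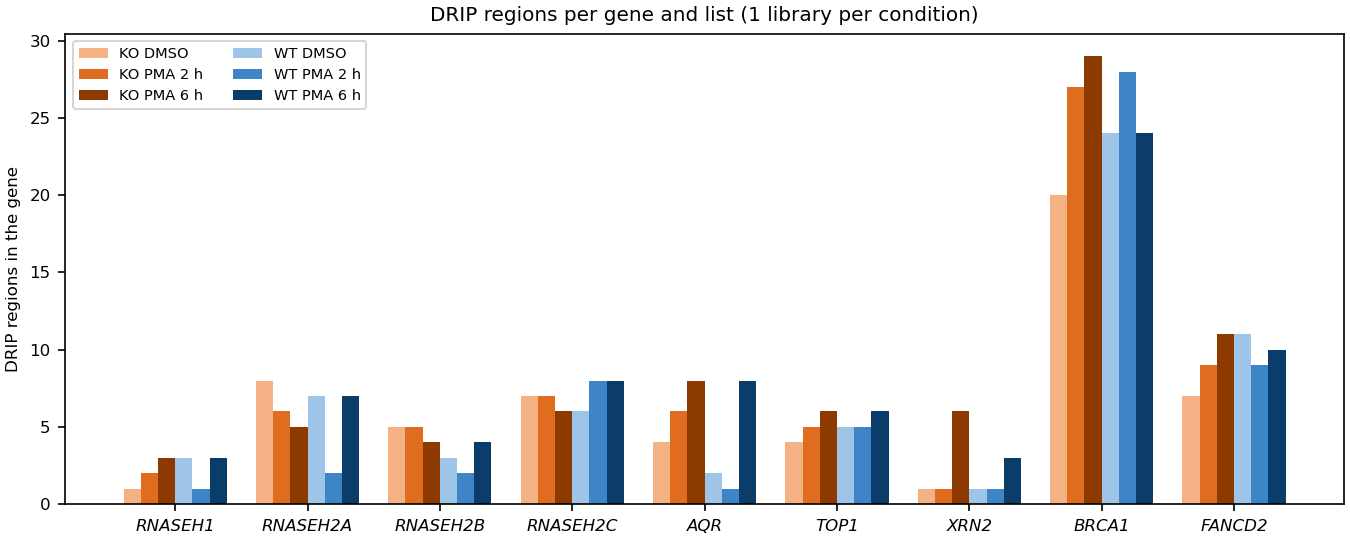
Number of DRIP regions (y axis) in each of the 9 genes (x axis), with 1 bar per list, A3B KO lists in orange left of WT lists in blue and darker shades for later times. BRCA1 stands highest in every list, between 20 and 29 regions, and RNASEH1 and XRN2 lowest in most.

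Across lines and treatments the counts of single genes moved by a few regions. AQR had 4, 6 and 8 regions in A3B KO cells (DMSO, PMA 2 h, PMA 6 h), against 2, 1 and 8 in WT cells. XRN2 had 1, 1 and 6 in A3B KO cells, against 1, 1 and 3 in WT cells, so that both long genes were most covered at PMA 6 h, when the lists were longest. The RNase H2 subunit genes went the other way in A3B KO cells: RNASEH2A had 8, 6 and 5 regions, RNASEH2B 5, 5 and 4, and RNASEH2C 7, 7 and 6. In WT cells RNASEH2A had 7, 2 and 7, RNASEH2B 3, 2 and 4, and RNASEH2C 6, 8 and 8. These are counts of summits, of which several can share a called peak. At PMA 6 h against DMSO in A3B KO cells, 6 members had more regions (65.5% of genes did) and 3 had fewer (18.7%), the 3 being the RNase H2 genes. In WT cells 5 members had more (66% of genes) and 1, FANCD2, had fewer (19.4%).

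At PMA 2 h against DMSO, 5 members had more regions and 1 fewer in A3B KO cells (48.5% and 32.3% of genes), while in WT cells 2 had more and 5 fewer (45.4% and 35.7%). Between lines, 4 members had more and 4 fewer regions in A3B KO than in WT cells in DMSO (42.5% and 34.4% of genes). The counts were 4 more and 2 fewer at PMA 2 h (47.7% and 30%), and at PMA 6 h 3 more and 2 fewer (42.7% and 36.1%).

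Summits within 250 bp of each other were joined into sites to follow the same place through the lists. The 395 regions formed 134 sites, of which 16 were found in all 6 lists and 44 in 1 list. No site was found in all 3 A3B KO lists and absent from WT, and none in all 3 WT lists and absent from A3B KO. Sites of both PMA 6 h lists alone numbered 6, in RNASEH1 (+10.9 and +13.7 kb), AQR (+43.4 and +70.5 kb) and TOP1 (+88.4 and +89.1 kb), whereas 2 sites were in all 4 PMA lists and no DMSO list and 3 in both DMSO lists and no PMA list. Sites were joined for the members only, so these counts have no share over all genes beside them. The PMA 6 h lists were also the longest, and the effect of list length on these sites was not tested. Of the 395 midpoints, 262 were in introns of the MANE Select transcript (the reference transcript shared by GENCODE and RefSeq). A further 33 were in its exons, 80 in the gene span outside it and 20 upstream of the start. Apart from a short upstream stretch, the choice of regions left only places inside members, so these counts cannot show a preference for genes. The same classes were not counted over all DRIP regions. FANCD2 had 20 sites and none of them in all 6 lists, although every list held 7 to 11 FANCD2 regions. Its WT DMSO region at 49252 bp did overlap a region in every other DRIP list. The A3B KO PMA 2 h summit lay over 250 bp away, at 49608 bp, and fell in the next site.

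**Figure D2:**
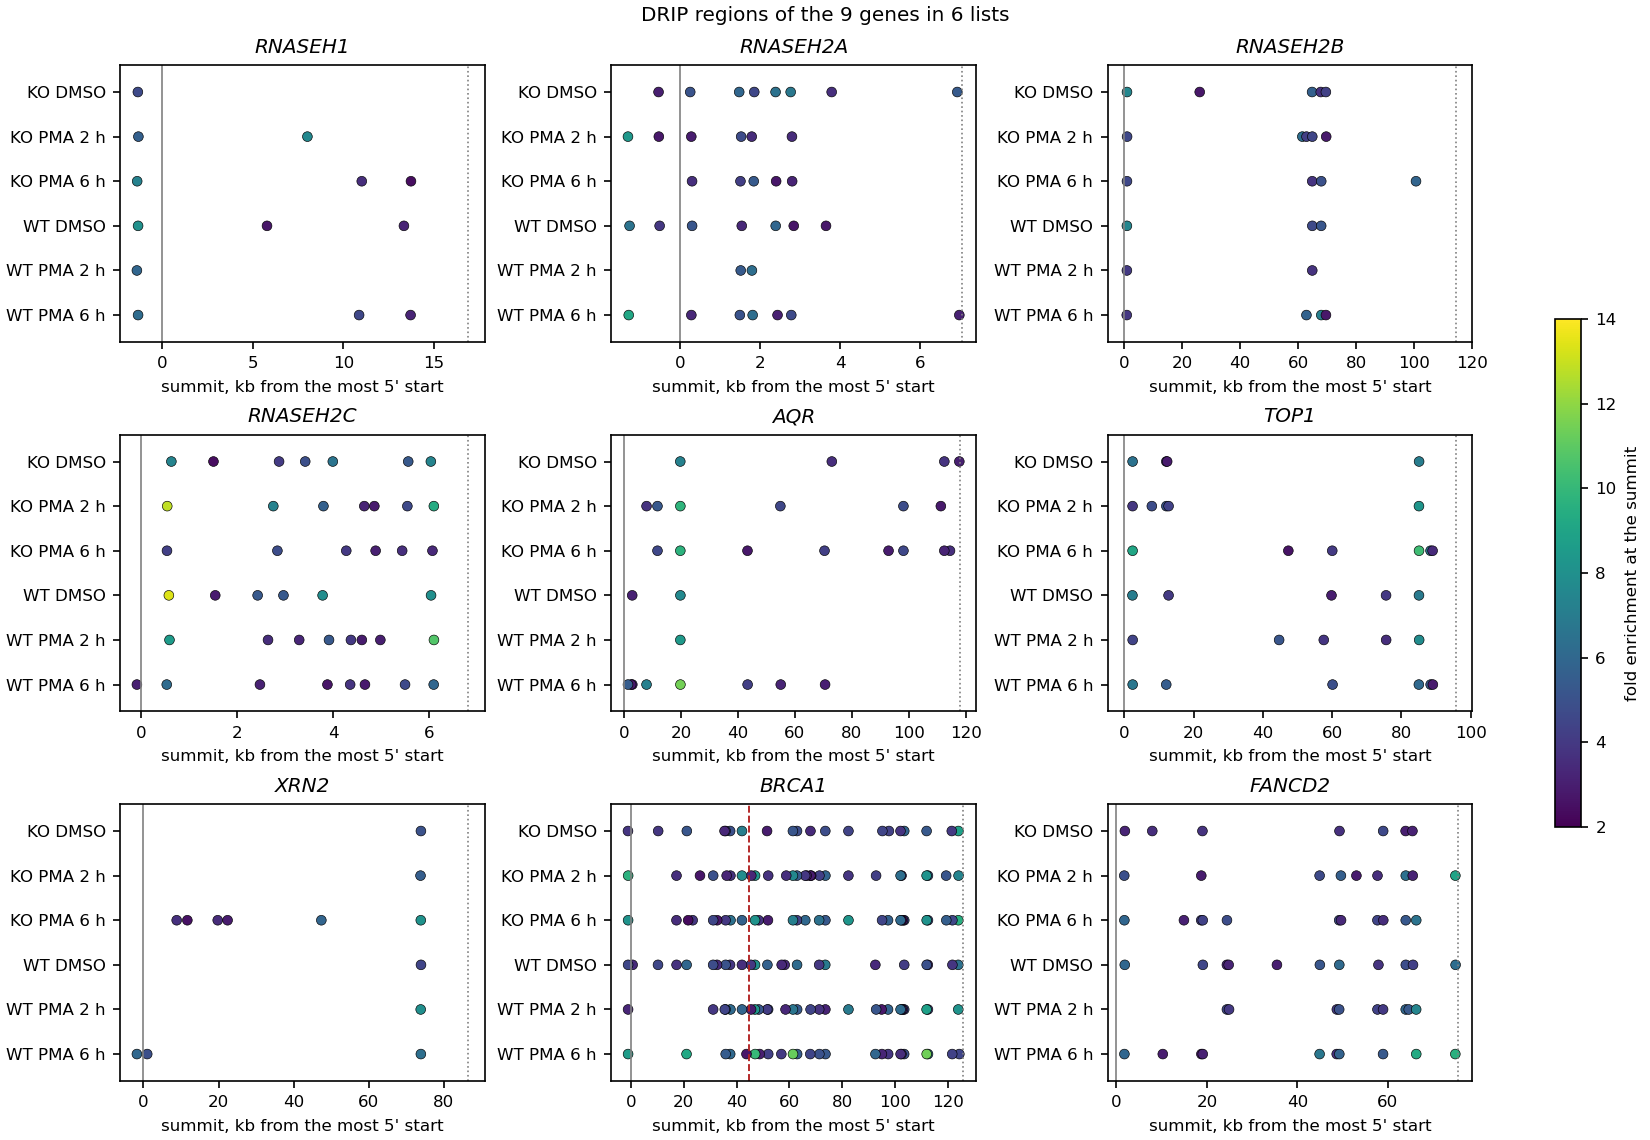
Position of every DRIP summit of the 9 genes in kb from the most 5′ start (x axis) by list (y axis, A3B KO lists above WT lists), colored by fold enrichment. Solid grey lines mark the start, dotted lines the end of the gene and the dashed red line the MANE Select start of BRCA1, and columns of points such as AQR at +19.8 kb, TOP1 at +85.1 kb and XRN2 at +73.9 kb are sites found in all 6 lists.

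To show the DNA under sites that were found in all 6 lists, sequences are given for 3 genes. They are 200 bases of hg38 on the coding strand around the site of all 6 lists with the highest minimum fold enrichment, in capitals where at least 8 A or T, or at least 4 G or C, follow each other.
RNASEH1, chr2:3559589-3559788 (- strand): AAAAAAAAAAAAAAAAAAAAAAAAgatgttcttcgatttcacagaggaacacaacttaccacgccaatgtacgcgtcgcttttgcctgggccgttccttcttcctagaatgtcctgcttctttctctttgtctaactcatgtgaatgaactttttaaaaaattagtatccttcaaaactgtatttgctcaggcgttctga
RNASEH2C, chr11:65720151-65720350 (- strand): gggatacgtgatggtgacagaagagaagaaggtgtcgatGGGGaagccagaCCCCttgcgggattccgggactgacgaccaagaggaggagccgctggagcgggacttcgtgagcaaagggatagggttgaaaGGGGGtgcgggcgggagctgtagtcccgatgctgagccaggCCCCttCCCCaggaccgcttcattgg
XRN2, chr20:21377097-21377296 (+ strand): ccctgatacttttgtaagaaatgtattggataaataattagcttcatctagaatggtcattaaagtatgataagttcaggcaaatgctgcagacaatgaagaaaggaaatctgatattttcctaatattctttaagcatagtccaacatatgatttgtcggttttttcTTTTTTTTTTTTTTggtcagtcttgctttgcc
The RNASEH2C window, in the gene body just past the start, is 62% GC with 12 CpG and 5 runs of G or C, and it has no A or T run. The other windows each hold 1 A or T run, and their GC content is 36.5% (RNASEH1) and 31% (XRN2). The RNASEH2B site lies where no such window was clear of an untranslated exon and is not shown.

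For A runs, the difference between RNASEH2C and both RNASEH1 and XRN2 was also seen over their regions. A run of 8 A (AAAAAAAA, searched on both strands in the 500 bp region) was found in 56 of 57 FANCD2, 133 of 152 BRCA1 and 12 of 13 RNASEH1 regions, but in 6 of 35 RNASEH2A and 7 of 42 RNASEH2C regions. Between these stood AQR (23 of 29), XRN2 (10 of 13), TOP1 (19 of 31) and RNASEH2B (10 of 23). These counts pool the 6 lists, so the same DNA can be counted up to 6 times and the regions are not separate places. FANCD2 had 20 sites, BRCA1 47, RNASEH1 6, RNASEH2A 8 and RNASEH2C 9. Over all 757528 regions of the 6 DRIP lists the share was 79.1%, against 25.9% of hg38 windows of 500 bases, 18% of DOX+ PMA, 14.7% of DOX+ DMSO and 18.2% of DOX- ChIP regions. A run of 4 G (GGGG, both strands) was common everywhere, in 336 of the 395 member regions and in 84.2% of all DRIP regions. Unlike their windows, 12 of 13 RNASEH1 and 9 of 13 XRN2 regions held one. The median GC content of the member regions was 47%, against 45.6% for all DRIP regions, with RNASEH2C highest (54.3%), XRN2 lowest (39%) and RNASEH1 at 47.6%. Regions of the members with and without an A run, pooled in the same way, had median fold enrichments of 4.77 (276 regions) and 4.20 (119 regions). These are descriptions of letters in the regions, and whether the runs take part in the immunoprecipitation was not tested.

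**Figure D3:**
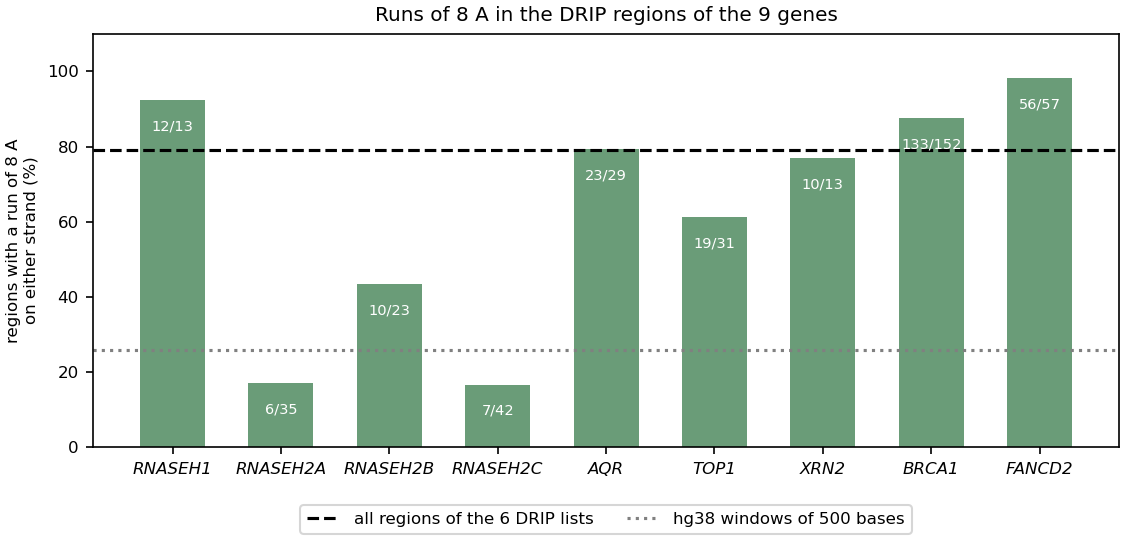
Share of the DRIP regions of each gene (x axis) that hold a run of 8 A on either strand (y axis, percent), with counts in the bars, a dashed line for all DRIP regions (79.1%) and a dotted line for hg38 windows (25.9%). Regions are pooled over the lists, so the same place can be counted in each of them. RNASEH2A and RNASEH2C fall below both lines, RNASEH1, BRCA1 and FANCD2 rise above both, and AQR is level with the upper line.

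RNASEH1 (chr2:3541430-3558333, minus strand), the gene of the monomeric RNase H, had its only site of all 6 lists 1.4 kb upstream of its start, inside the divergent noncoding gene RNASEH1-DT. The fold enrichment there was 4.69, 5.66 and 7.34 in A3B KO cells (DMSO, PMA 2 h, PMA 6 h), against 8.04, 5.93 and 6.18 in WT cells, so the order of the lines in DMSO was turned round at PMA 6 h. The strongest region within 2 kb of a start, here called the promoter region, was ranked by fold enrichment among all protein-coding genes with such a region in both lists compared. A log2 rank ratio above 0 means a higher place in the first list named. In DMSO RNASEH1 had rank 3567 in A3B KO and 1091 in WT cells of 5698 genes, a log2 ratio of -1.71, and at PMA 6 h rank 1499 against 2744 of 6160 (0.87). Against DMSO, PMA 6 h gave 1.41 in A3B KO cells and -1.15 in WT cells. The remaining RNASEH1 regions, 7 in all lists together, lay inside the gene, which the protein-coding gene ENSG00000286905 covers whole.

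RNASEH2B (chr13:50909747-51024120, plus strand), an accessory subunit, gave the pattern most alike in both lines. Its site at +0.9 kb, in an intron that RNASEH2B-AS1 also covers, had fold enrichments of 7.55, 4.60 and 4.58 in A3B KO cells and 7.49, 4.04 and 3.97 in WT cells. The DMSO values of both lines lay above all 4 PMA values. In the promoter ranking RNASEH2B stood 2-fold or more lower after PMA in each pairing, with log2 ratios of -1.56 (2 h) and -1.43 (6 h) in A3B KO cells and -1.52 and -1.72 in WT cells. Between A3B KO and WT cells its place differed little, by -0.01 in DMSO, 0.01 at PMA 2 h and 0.31 at PMA 6 h. A further site at +64.9 kb lay past the end of the MANE Select transcript and was found in 5 of the 6 lists, with 3.78- to 5.65-fold enrichment.

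RNASEH2C (chr11:65714005-65720818, minus strand), the other accessory subunit, held the highest fold enrichment of any member promoter. At its +0.6 kb site the fold enrichment was 7.42, 12.8 and 4.29 in A3B KO cells, against 13.4, 8.53 and 6.17 in WT cells. Both lines were thus lowest at PMA 6 h, but the peak came at PMA 2 h in A3B KO and in DMSO in WT cells. In rank, RNASEH2C stood lower in A3B KO than in WT cells in DMSO (1379 against 315 of 5698, log2 ratio -2.13) and less than 2-fold away at PMA 2 h (0.79) and PMA 6 h (-0.64). PMA 2 h against DMSO gave 1.70 in A3B KO and -1.19 in WT cells, and PMA 6 h -1.49 and -2.96. The pileup did not follow at 2 h in WT cells, with 100 fragments after PMA and 97 in DMSO, and ranking by pileup turned that value to 0.67. Further into the gene, in the part shared with KAT5, a site at +6.1 kb had fold enrichments of 7.4, 9.4 and 3.4 in A3B KO cells and 7.9, 10.8 and 5.9 in WT cells.

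RNASEH2A (chr19:12806584-12813640, plus strand), the catalytic subunit, had several neighboring summits, and the strongest within 2 kb of the start was not the same in every list. It lay at about -1.3 kb in A3B KO PMA 2 h (8.4-fold), WT DMSO (6.6-fold) and WT PMA 6 h (9.1-fold), and past +1.4 kb in A3B KO DMSO (5.9-fold), A3B KO PMA 6 h (5.3-fold) and WT PMA 2 h (6.3-fold). The rank difference at PMA 6 h, 3155 in A3B KO against 948 in WT cells of 6160 (log2 ratio -1.73), therefore sets unlike summits side by side. At the +1.5 kb site itself, where neighboring summits up to 1849 bp were joined and the strongest was taken, the fold enrichment was 5.92, 4.76 and 5.33 in A3B KO cells and 3.33, 6.28 and 6.27 in WT cells. With summits within 1 kb of the start only, the PMA 6 h value became 0.17.

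**Figure D4:**
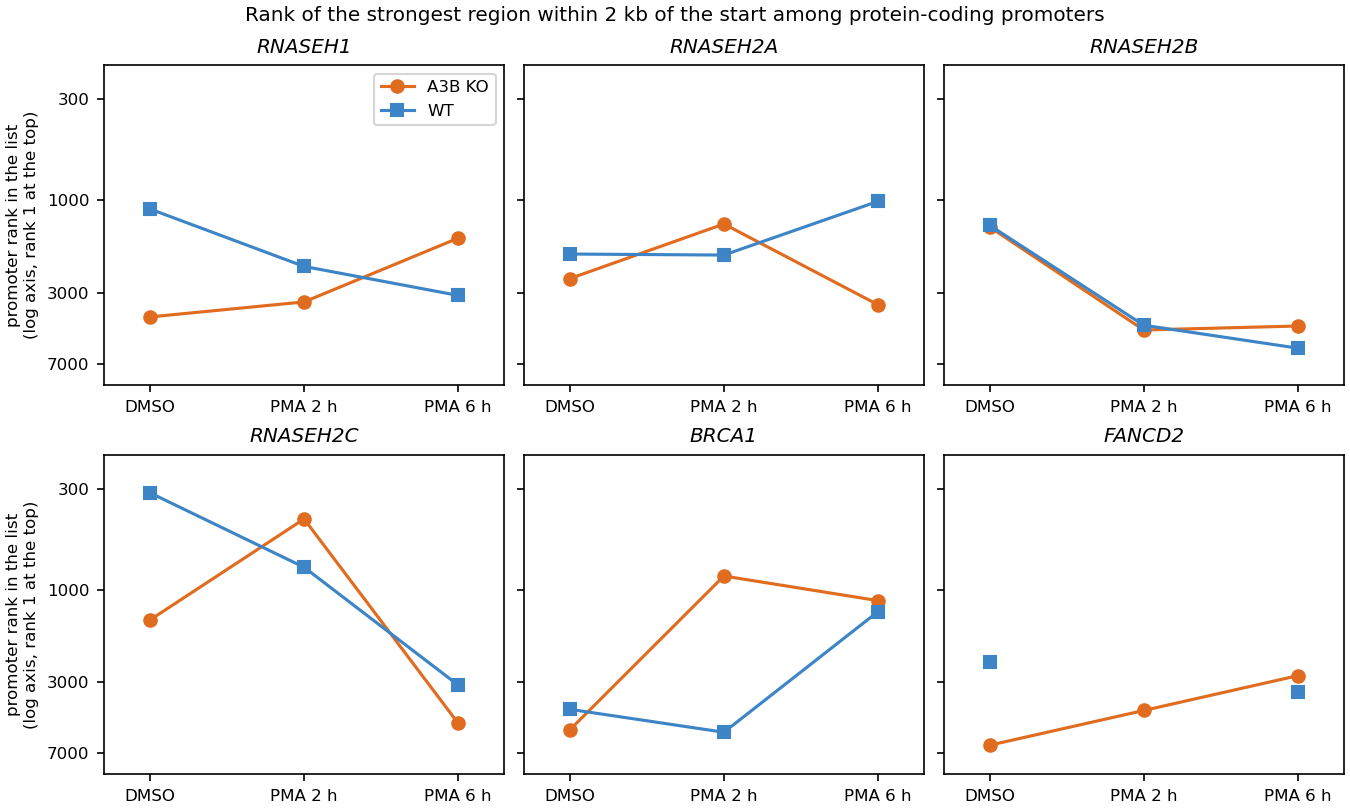
Rank of the strongest region within 2 kb of the start among protein-coding promoters of the list (y axis, log scale, rank 1 at the top) for 6 genes by treatment (x axis), with A3B KO as circles and WT as squares. RNASEH2B runs downward after PMA in both lines, RNASEH2C ends low at PMA 6 h in both, and FANCD2 has no WT point at PMA 2 h because the list held no region there.

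AQR (chr15:34851782-34969742, minus strand), the spliceosomal helicase gene, had 1 strong site, in an intron at +19.8 kb with no other annotated gene. Its fold enrichment was 7.22, 9.81 and 9.72 in A3B KO cells and 7.67, 8.46 and 11.4 in WT cells, at percentiles 92.1 to 97.4 of its list. The other 23 AQR regions had fold enrichments of 2.75 to 7.20, and the only promoter region, at +1.4 kb, was called in WT PMA 6 h (5.5-fold).

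TOP1 (chr20:41028822-41124487, plus strand), the topoisomerase gene, had no region within 2 kb of its start in any list, because its first site sat just outside, between 2365 and 2435 bp. There the fold enrichment was 6.51, 3.88 and 9.10 in A3B KO cells, against 7.02, 4.41 and 6.78 in WT cells, so both lines were lowest at PMA 2 h. At +85.1 kb, in a stretch also covered by PLCG1-AS1, it was 7.03, 8.24 and 10.3 in A3B KO cells and 6.88, 7.77 and 6.05 in WT cells. The lines differed there at PMA 6 h, with rank 2070 in A3B KO against 18539 in WT cells among 32160 regions present in all 6 lists, a log2 ratio of 3.16. Just inside the 2 kb limit were FANCD2, with summits between 1714 and 1854 bp, RNASEH2A, with summits up to 1849 bp, and XRN2 in WT PMA 6 h at -1749 bp. Just outside it, and so not counted, were RNASEH1 summits at -2028 bp in A3B KO DMSO (2.88-fold), -2074 bp in A3B KO PMA 6 h (3.52-fold) and -2092 bp in WT PMA 6 h (3.39-fold). Farther out, and also not counted, were RNASEH2A summits in A3B KO cells at -2480 bp (DMSO, 4.48-fold), -2491 bp (PMA 2 h, 6.43-fold) and -2489 bp (PMA 6 h, 5.13-fold). No WT summit was found between these positions and the limit, and summits farther upstream were not counted. The lack of sites particular to A3B KO lists was therefore seen under the 2 kb rule only. Whether such a site lies beyond the limit is not known.

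XRN2 (chr20:21303331-21389825, plus strand), the termination exonuclease gene, was nearly bare except for an intronic site at +73.9 kb. The fold enrichment there was 5.03, 5.52 and 8.07 in A3B KO cells and 4.45, 7.95 and 6.35 in WT cells. In both DMSO lists and both PMA 2 h lists this was the only XRN2 region. At PMA 6 h A3B KO cells had 5 further regions inside the gene, from +8.8 to +47.4 kb, and WT cells had 2, at -1.7 and +1.0 kb, with no site in common between the lines. The PMA 6 h lists were the longest, and keeping the 91894 regions with the highest −log10 q of each DRIP list left 37 of the 78 member regions in A3B KO and 36 of the 73 in WT cells at PMA 6 h.

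BRCA1 (chr17:43044295-43170245, minus strand) has, in GENCODE 44, transcripts that begin 44881 bp upstream of its MANE Select start, so its rule-based start lies beside NBR1. The region 1.1 kb before that start lies in NBR1, and its values belong as much to that gene. There the fold enrichment was 3.87, 9.69 and 8.15 in A3B KO cells, against 4.54, 3.28 and 8.56 in WT cells. In rank this gave 838 in A3B KO against 4678 in WT cells of 5310 at PMA 2 h (log2 ratio 2.48), with -0.27 in DMSO and 0.13 at PMA 6 h. Against DMSO, PMA 2 h gave 2.44 in A3B KO and -0.36 in WT cells, and PMA 6 h 2.17 and 1.78. Around the MANE Select start, a choice made after the data were seen, the regions within 2 kb were weak: 0, 1 (3.31-fold) and 0 in A3B KO cells and 1 (3.91-fold), 1 (2.92-fold) and 1 (2.73-fold) in WT cells. Just past this limit, and so not counted, lay a stronger site, 46959 to 47034 bp from the most 5′ start. Its values are given below as the site at +47.0 kb.

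The many BRCA1 regions formed 47 sites, the upstream site in NBR1 included. Of these, 6 were in all 6 lists and 13 in 1 list. Sites found in A3B KO lists alone numbered 9, and those in WT lists alone 7. A site at +47.0 kb, in the first part of the MANE Select transcript, had fold enrichments of 8.2 and 8.2 in A3B KO cells (PMA 2 h, PMA 6 h) and 8.0, 8.3 and 10.0 in WT cells, and it was not called in A3B KO DMSO. Another at +112.1 kb had 5.30, 8.16 and 8.08 in A3B KO cells and 4.97, 8.79 and 11.4 in WT cells, higher after PMA than in DMSO in both lines. A site at +51.9 kb had fold enrichments of 2.9, 3.7 and 2.9 in A3B KO cells, against 5.7, 4.9 and 4.3 in WT cells. Its joined summits ranged from 51562 to 52003 bp, so unlike summits stand side by side. In rank among the 32160 regions present in all 6 lists, A3B KO against WT gave log2 ratios of -1.35, -0.48 and -0.19 (DMSO, PMA 2 h, PMA 6 h). The difference in place was thus past 2-fold in DMSO alone.

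FANCD2 (chr3:10026370-10101932, plus strand) had its promoter region 1714 to 1854 bp past its start. The fold enrichment was 3.19, 4.95 and 5.91 in A3B KO cells, against 5.94 in DMSO and 5.91 at PMA 6 h in WT cells. These WT values stood at percentiles 80.9 (DMSO) and 60.1 (PMA 6 h) of their lists, and no region was called there in WT PMA 2 h. In DMSO the ranks were 5247 in A3B KO and 2268 in WT cells of 5698 (log2 ratio -1.21), and at PMA 6 h they differed by 0.21. PMA 6 h against DMSO gave 1.20 in A3B KO and -0.21 in WT cells, and the A3B KO value was 0.35 when promoters were ranked by pileup. Most other FANCD2 regions were intronic, and 23 of 57 lay under FANCD2OS, a gene on the opposite strand.

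Over the ranked members, the comparison of lines in DMSO gave 3 of 6 lower in A3B KO than in WT cells by 2-fold or more (RNASEH1, RNASEH2C and FANCD2) and 0 higher. Of all 5698 ranked genes, 11% were lower and 11.3% higher. Ranking by pileup kept the count at 3 but not the genes, since FANCD2 was then at -0.71 and RNASEH2A at -1.03, and ranking by −log10 q left 2, with FANCD2 at -0.98. For PMA 2 h, 1 of 5 was higher (BRCA1, 11.5% of genes) and 0 lower (11.4%), and at PMA 6 h 1 of 6 was lower (RNASEH2A, 11.9%) and 0 higher (12.1%). The median member ratio was -0.79 in DMSO, 0.51 at PMA 2 h and 0.17 at PMA 6 h, against medians of -0.0084, -0.011 and -0.0020 over all genes. For PMA 2 h against DMSO, 2 of 6 members were higher (16.6% of genes) and 1 lower (17%) in A3B KO cells, and 0 of 5 higher (17.2%) and 2 lower (17.7%) in WT cells. For PMA 6 h against DMSO, 3 of 6 were higher (14.6%) and 2 lower (15.2%) in A3B KO cells, and 2 of 6 higher (17%) and 3 lower (17.3%) in WT cells. Within a line, PMA 2 h and PMA 6 h were set against the same DMSO library, and the comparisons between lines use these libraries again.

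**Figure D5:**
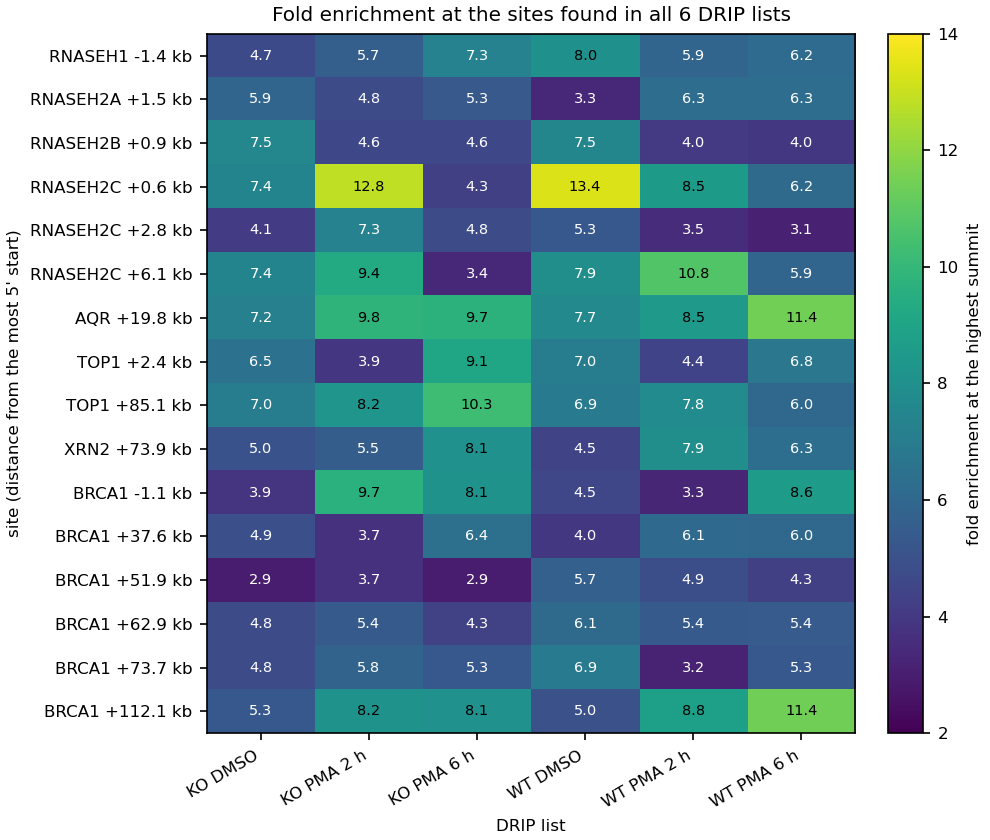
Fold enrichment (color and number) at the 16 sites of the members found in all 6 DRIP lists (rows, named by gene and distance from the most 5′ start) by list (columns, A3B KO left of WT). In its row, RNASEH2B at +0.9 kb has its 2 highest values in the DMSO columns, and AQR at +19.8 kb stays above 7 in every column.

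A further comparison used the regions of WT DMSO that overlapped a region in each of the other 5 DRIP lists. There were 32160 such regions, 22 of them in members. Each list was ranked over them by the fold enrichment of its strongest overlapping region, so the summit can still shift within about 500 bp. The 22 are not separate measurements: BRCA1 regions at +112.1 and +112.5 kb took the same values in all 6 lists, and a pair of RNASEH2C regions the same values in 4. At PMA 6 h against DMSO, 4 of the 22 were 2-fold or more lower (16.3% of all) and 7 higher (16.8%) in A3B KO cells, while 14 were lower (17.5%) and 3 higher (18.3%) in WT cells. The median log2 rank ratio of the members was 0.01 in A3B KO cells and -1.11 in WT cells, against 0.01 and 0.02 over all regions. The 14 lower in WT cells were in RNASEH1, RNASEH2B, RNASEH2C (5), TOP1 (2), BRCA1 (4) and FANCD2, and neighboring regions of a gene are not independent. With the nearest summit taken and overlapping regions counted once, a choice made after the data were seen, 5 of 21 were lower and 5 higher in A3B KO cells, and 13 lower and 2 higher in WT cells. The contrast between lines was not tested and depends on the measure: with pileup in place of fold enrichment, 7 were lower in A3B KO and 8 in WT cells. At PMA 2 h, 5 were higher (17.3%) and 5 lower (17.1%) in A3B KO and 5 higher (17.7%) and 7 lower (17%) in WT cells.

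Between lines, the same 22 regions gave 2 higher (15.9%) and 5 lower (15.8%) in A3B KO than in WT cells in DMSO. After PMA 2 h, 4 were higher (15.2%) and 7 lower (15.1%), and at PMA 6 h 4 higher (14.3%) and 2 lower (14.2%). Of all member regions, whether in all lists or not, 73.7% of those in A3B KO DMSO overlapped a WT DMSO region by at least 1 bp (42 of 57, exact 95% interval 60.3% to 84.5%, counting error only), and 64.5% of those in WT DMSO overlapped an A3B KO region (40 of 62, 51.3% to 76.3%). Over the whole lists the shares were 55.7% and 59.4%. The intervals treat regions as independent, but the 57 came from 45 called peaks and the 62 from 51, in 9 genes. They therefore cannot decide whether the members differ from the whole lists. The members' share at PMA 2 h was 58.8% in A3B KO and 71.9% in WT (all regions 58.7% and 63.5%), and at PMA 6 h 66.7% in A3B KO and 69.9% in WT (64.3% and 67.9%).

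The A3B-eGFP ChIP lists were nearly empty at these genes. RNASEH2C alone had regions, both with DOX+ DMSO: at +79 bp with a fold enrichment of 2.47, a pileup of 49 and a −log10 q of 5.29, and at +597 bp with 2.10, 37 and 2.26. These stood at percentiles 20.7 and 6.49 of their list. With DOX+ PMA no member had a region, the nearest to RNASEH2C being 1.90 kb away, and without DOX none had a region, the nearest being 206 kb away. A region was found in 7.8% of protein-coding genes with DOX+ PMA, 9.66% with DOX+ DMSO and 1.63% without DOX, and within 2 kb of the start in 3.98%, 5.02% and 0.827%, so 1 of 9 members is near the share of all genes. Of the 62 member regions of WT DRIP in DMSO, 1 was overlapped by a DOX+ DMSO region (2.61% of all) and 0 by a DOX- region (1.43%), and of the 57 of PMA 2 h, 0 by a DOX+ PMA region (2.41%). The overlapped region was the RNASEH2C site at +0.6 kb, the strongest member promoter in that DRIP list.

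Other genes of R-loop biology were ranked in the same way. Of 56 further regulators, such as the helicase DHX9 and the mRNA packaging genes of the THO complex, 46 to 52 had a DRIP region in a list and 31 to 37 a promoter region. For A3B KO against WT in DMSO, 4 of 30 ranked were 2-fold or more higher (11.3% of all genes) and 3 lower (11%), at PMA 2 h 4 of 27 higher (11.5%) and 1 lower (11.4%), and at PMA 6 h 0 of 30 higher (12.1%) and 6 lower (11.9%). Their median ratio was -0.12, 0.09 and -0.22, against -0.0084, -0.011 and -0.0020 over all genes. After PMA 2 h, 2 of 30 were higher (16.6% of all genes) and 4 lower (17%) in A3B KO cells, and 3 of 24 higher (17.2%) and 7 lower (17.7%) in WT cells. After PMA 6 h, 2 of 29 were higher (14.6%) and 7 lower (15.2%) in A3B KO cells, and 7 of 29 higher (17%) and 6 lower (17.3%) in WT cells. Past 2-fold the same way in both lines at PMA 2 h were DDX21, a nucleolar helicase (-4.57 in A3B KO and -4.80 in WT cells), NPM1, nucleophosmin (-3.07 and -3.24), DXO, a decapping exonuclease (-2.23 and -1.90), TREX1, a DNA exonuclease (-1.0 and -2.30), and METTL3, the RNA m6A methyltransferase (1.34 and 1.16). Those at PMA 6 h included TREX1 (-1.45 and -2.24) and DXO (-2.41 and -1.07). No gene of the list was past 2-fold the same way at all 3 treatments between A3B KO and WT cells.

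Of 11 partners of RNase H2 in ribonucleotide repair and in Aicardi-Goutières syndrome, such as PCNA, FEN1 and SAMHD1, 9 to 11 had a region and 5 to 7 a promoter region in a list. TREX1, SAMHD1 and ADAR are also among the further regulators above, so the lists are not separate, and the values of TREX1 count in both. At most 5 partners could be ranked, so 1 gene is a large share, and the shares of all genes past 2-fold are those just given. Between A3B KO and WT cells 0 of 4 were higher and 1 lower in DMSO, 1 and 1 of 4 at PMA 2 h and 0 and 0 of 5 at PMA 6 h. After PMA 2 h 1 of 4 was higher and 1 lower in A3B KO cells and 0 and 1 of 4 in WT cells. After PMA 6 h 0 of 4 were higher and 1 lower in A3B KO cells, and 0 higher and 3 lower in WT cells.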

How the data were processed

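The 9 deposited peak lists were analysed, 6 from S9.6 DRIP–seq (A3B KO and WT MCF10A cells, each in DMSO, PMA 2 h and PMA 6 h) and 3 from anti-GFP ChIP–seq of MCF10A-TREx-A3B-eGFP cells. The series has 18 samples, and the 9 inputs entered only through the authors' peak calls. The authors trimmed reads with Cutadapt 1.13, aligned them to hg38 with STAR 2.6.1d, filtered them with SAMtools 1.3.1, Picard and bedtools 2.29.2, and called peaks with MACS2 at a q of 0.01 against the matching input. For MACS2 the submitters' processing notes give 2.2.6, and the methods another version. In the deposited lists the pileup is the signal (coverage) at the summit, the fold enrichment is a ratio over local background, and −log10 p and −log10 q are the caller's values. The files do not say if starts are 0- or 1-based, so positions carry a doubt of 1 bp. Reads per library are unknown, so only exact (Clopper-Pearson) intervals for shares of regions are given. These cover counting error as if regions were independent.

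Chromosomes 1 to 22 and X were used, which left out 4 to 13 regions of each DRIP list. Genes were taken from GENCODE 44 on hg38 (the study names an earlier release), counting regions whose midpoint lay in the span or within 2 kb of the most 5′ start. Promoter regions were ranked by fold enrichment over genes with one in both lists, and a change of at least 2-fold in rank was counted. With 1 library per condition no test across libraries was made. The members and the gene lists (56 other R-loop regulators, 11 RNase H2 partners, and 12 basal, 8 luminal and 4 blood markers) were chosen with earlier results of these data known. Genes outside the 9 were named when past 2-fold the same way in both lines, or at all 3 treatments between lines, and as the 2 genes nearest each member in promoter rank. A result that this rule gives, and some sequences, are not reported here.

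Alternatives were ranks by pileup or −log10 q, summits within 1 kb, a −log10 q of at least 5, equal list lengths and an overlap of 250 bp. MANE Select starts and spans, merged summits, regions taken from other lists, regions ranked by pileup, nearest summits and overlapping regions counted once were added after the data were seen. Sequences were read from hg38. The steps were tested on simulated lists. The work used numpy 2.4.6 and pandas 2.3.3 under Python 3.11.15, with scipy 1.17.1 for intervals and matplotlib 3.10.9 for plots.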

Additional observations from a re-analysis of the deposited data

Results flagged for a closer look

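The promoter ranks of 5 members moved in opposite directions in A3B KO and WT cells at PMA 2 h, PMA 6 h or both. The share of all ranked genes that did so was not counted, so the number of members cannot be read as a trait of the set. Each value is the log2 rank ratio of PMA against DMSO in A3B KO cells minus that in WT cells, from 1 library per condition, and none of the differences was tested.

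At PMA 2 h the difference was 2.89 for RNASEH2C (1.70 in A3B KO and -1.19 in WT cells), 2.80 for BRCA1 (2.44 and -0.36) and 1.16 for RNASEH1 (0.31 and -0.85). The RNASEH2C value in WT cells changed sign when promoters were ranked by pileup, and the BRCA1 region lies in NBR1. At PMA 6 h the difference was 2.56 for RNASEH1 (1.41 in A3B KO and -1.15 in WT cells), 1.41 for FANCD2 (1.20 and -0.21), and -1.33 for RNASEH2A (-0.24 and 1.09). The FANCD2 value in A3B KO cells was 0.35 by pileup, 0.80 by −log10 q and 0.84 at equal list lengths, and the RNASEH1 value in WT cells -0.63 by pileup and -0.87 by −log10 q. The RNASEH2A summits compared were not the same in all lists.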

How the results depend on the processing

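No paired analysis was possible because each condition has 1 library, and for the same reason no replicate could be left out. The number of members past a 2-fold change in promoter rank moved by over 1.5 times as follows. With summits within 1 kb it was 1 of 3 ranked for A3B KO against WT in DMSO, 0 of 2 at PMA 2 h and 0 of 3 at PMA 6 h, and 2 of 3 for PMA 6 h against DMSO in each line. With equal list lengths PMA 6 h against DMSO gave 3 of 5 in each line. Ranking by pileup gave 2 of 6 for PMA 6 h in WT cells, ranking by −log10 q gave 1 of 5 for PMA 2 h in WT cells, and the MANE Select start gave 0 of 5 for A3B KO against WT at PMA 2 h. Smaller moves were from 3 of 6 to 2 of 6 by −log10 q and 2 of 5 at a −log10 q of at least 5 for A3B KO against WT in DMSO, and from 5 of 6 to 4 of 6 by pileup and by −log10 q for PMA 6 h in A3B KO cells. Among single members, by pileup RNASEH1 (-0.63), RNASEH2A (0.39) and BRCA1 (0.95) lost the 2-fold change at PMA 6 h in WT cells, as did RNASEH1 by −log10 q (-0.87), and BRCA1 lost that between lines at PMA 2 h with the MANE Select start (0.0079). Single members that changed sign were RNASEH2C at PMA 2 h in WT cells (0.67 by pileup), RNASEH2A at PMA 6 h (0.17 for A3B KO against WT and -0.66 for PMA in WT cells, summits within 1 kb) and BRCA1 at PMA 6 h in WT cells (-0.27 with the MANE Select start). Member regions fell in number to 44 (A3B KO PMA 2 h) at a −log10 q of at least 5, to 42 (A3B KO PMA 2 h), 37 (A3B KO PMA 6 h) and 36 (WT PMA 6 h) at equal list lengths, and to 1 in DOX+ DMSO at a −log10 q of at least 5 or with summits of a peak merged. Among the 22 regions of all 6 lists at PMA 6 h against DMSO, ranking by pileup gave 7 lower and 2 higher in A3B KO and 8 lower in WT cells, whereas regions taken from the WT PMA 6 h or the A3B KO DMSO list gave 4 of 21 lower in A3B KO and 13 of 21 in WT cells each. Counting overlapping regions once, taking the nearest summit, or both gave 4 or 5 lower in A3B KO and 13 lower in WT cells. The cause of these changes was not tested beyond the fewer regions that the stricter settings leave. Depth limits the weak regions most: a region missing from a list may lie just under the threshold.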

Other observations

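For the 5 members with a promoter region in all 6 DRIP lists, the 2 protein-coding genes with the most alike promoter ranks were found among 3683 such genes, by the Euclidean distance of log2 ranks over the 6 lists. For RNASEH2B, whose ranks were 1198, 2940 and 2692 in A3B KO cells (DMSO, PMA 2 h, PMA 6 h) and 1189, 2947 and 3135 in WT cells, they were EIF4H at a distance of 0.39 and CAPZA1 at 0.40. For RNASEH2A they were HNRNPAB (0.51) and PMVK (0.54), and for RNASEH2C PIM3 (1.01) and BFAR (1.49). ENSG00000286905 and NBR1 stood at a distance of 0 from RNASEH1 and BRCA1 because they have the same promoter region, and next came QTRT1 (0.58) and PYM1 (0.86).

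The nearest A3B-eGFP region with DOX+ DMSO lay 10.7 kb from RNASEH2A, 39.7 kb from BRCA1 and 41.8 kb from FANCD2, and 295 kb from AQR and farther from RNASEH1, RNASEH2B, TOP1 and XRN2. With DOX+ PMA the nearest lay 9.74 kb from RNASEH2A, 46.0 kb from BRCA1 and 214 kb from FANCD2.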
